A study of Homo sapiens with 2 samples.

Results

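Nuclear-encoded respiratory chain genes were analyzed in RNA-seq data of Huh7 cells, a human hepatocellular carcinoma (HCC) cell line. Members were the genes whose symbol begins with NDUF, UQCR, COX4 to COX8 or ATP5, together with SDHA, SDHB, SDHC and SDHD, leaving out genes described as pseudogenes. This rule found 104 of the 61541 genes in the table. By the known roles of their products, 37 belong to complex I, 4 to complex II, 9 to complex III, 19 to complex IV and 19 to complex V. A further 8 are NDUFAF assembly factors of complex I, 2 are readthrough genes and 6 are antisense or divergent RNAs. NDUFA4 and NDUFA4L2 were counted with complex IV, where the NDUFA4 protein is now placed. The Huh7-NC cells were transfected with a negative control siRNA and the Huh7-si cells with an siRNA against BRF2, and neither group carries any other labelled change. The comparison asks which transcripts differ once BRF2, a core transcription factor of RNA polymerase III, is knocked down. Each condition has 1 library of total RNA, from 1 cell line, so no difference given here has a replicate check. Which BRF2 siRNA was sequenced and the time of harvest are not given in the sources used here.

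The authors' estimated reads summed to 22852648 for the control library and 22089016 for the knockdown library. BRF2 itself fell from 1281 reads to 364, which is -1.77 on the log2 scale (95% interval -1.94 to -1.60). All 8 hepatoma markers examined, among them ALB and AFP, were read in both libraries, at 1.80% and 1.88% of all reads, with APOB higher (1.04) and APOA1 lower (-0.83) in Huh7-si. Of the 6 markers of blood, endothelial and fibroblast cells, CD3E and DCN were at 0 reads, PTPRC had 5 and 1, CDH5 had 2 and 0, PECAM1 had 60 and 63, and LUM had 36 and 50. Every log2 fold change below is Huh7-si over Huh7-NC, from CPM (counts scaled to the library total) with 0.5 reads added, and every 95% interval is a Clopper-Pearson interval that covers counting error only. Genes with at least 10 reads over both libraries were tested, 17955 in all.

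The respiratory chain sits in the inner mitochondrial membrane. Complexes I and II pass electrons from NADH and succinate to ubiquinone, complex III passes them to cytochrome c, complex IV passes them to oxygen, and complex V uses the resulting proton gradient to make ATP. Most subunits are encoded in the nucleus and imported, while a small set is encoded by mitochondrial DNA, so the complexes are assembled from the products of both genomes. Hepatocytes are rich in mitochondria, and the levels given here are of mRNA, not of protein or of respiration.

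Transcripts of nuclear-encoded subunits were lower in Huh7-si in nearly every case, by small and similar amounts. Of the 81 subunits and paralogs of complexes I to V with enough reads, 78 had a negative log2 fold change and 3 a positive one, with a median of -0.47, which is a level 28.0% lower. The middle of the distribution was narrow, from -0.56 at the lower quartile to -0.32 at the upper quartile. Over all genes tested the median was 0.21 and 35.2% were negative, and over protein-coding genes it was 0.15 and 38.3% were negative. As a share of all reads, the subunits made up 1.18% of the Huh7-NC library and 0.866% of the Huh7-si library. Fewer cells with active transcription of these genes and less of their RNA in every cell cannot be told apart in bulk RNA.

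At a fold of at least 2 with an unadjusted p under 0.05 in a two-sided exact binomial test, none of the 95 members tested was called lower, against a background of 1.17% of all genes tested, and none was called higher, against 12.9%. The same 0 and 0 were found with Benjamini-Hochberg adjustment and under edgeR's exact test, for which a coefficient of variation of 0.1 or 0.4 was presumed. At a fold of at least 1.5, 15 members were called lower and 0 higher, where 3.89% of all genes (3.97% of protein-coding genes) were called lower and 23.5% higher. The share called lower depended on gene length. Up to 700 bases it was 23.3% of subunits and 15.8% of protein-coding genes, and from 701 to 1500 bases 12% and 11.4%. From 1501 to 3000 bases it was 21.1% (4 of 19 subunits) and 4.01%, and from 3001 to 10000 bases 14.3% (1 of 7) and 1.32%. These bands use the deposited length, which was long for the reads per TPM of some called subunits, such as NDUFA9 and NDUFA12. The shares of subunits in the longer bands therefore depend on the length used. With the same p at any fold, 80 members were lower and 1 was higher, against 20% and 41.8% of all genes. The last count assumes that counting error is the sole error. When edgeR's exact test was given a coefficient of variation of 0.1 between replicates, 50 members were lower and 0 higher at any fold (7.61% and 26.5% of all genes), and at 0.4 the counts were 0 and 0 (0.301% and 3.17%). All of these tests compare 2 libraries and not the conditions. Below, "called" means the fold of 1.5 with that p, and "passed the exact test" means the p alone.

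**Figure D1:**
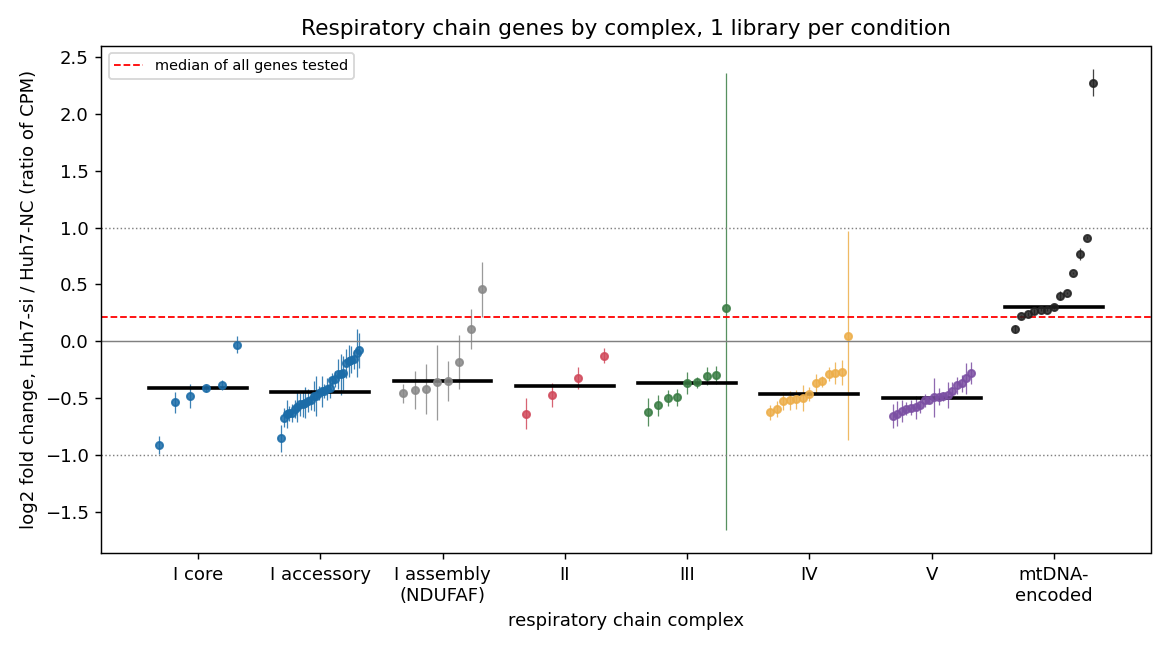
Log2 fold change (Huh7-si over Huh7-NC, ratio of CPM) of the tested genes by complex, with 95% counting intervals as vertical lines, the median of each group as a black bar, folds of 2 as dotted lines and the median of all genes tested as a dashed line. The group medians of complexes I to V lie between -0.36 and -0.50, below the dashed line at 0.21, and those of the mitochondrially encoded subunits, drawn at the right, center on 0.30.

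The promoters of subunits that moved together were read from RefSeq (GRCh38.p14), as 250 bases before and 50 transcribed bases after the start of each gene, and 66 of the 81 tested subunits had one. NRF1 and GABPA (the DNA-binding part of NRF2) are transcription factors long known to act at promoters of nuclear respiratory genes. The NRF1 motif (GCGC and TGCGC parted by any base, on both strands) was in 16 of the 66 promoters, or 24.2%, against 6.28% of all 27305 promoters. The GABPA motif ACTTCCGG was in 10 of them, or 15.2%, against 4.44%. The CCAAT box was in 22, or 33.3% against 35.7%, and TATAAA was in 6, or 9.09% against 12%. The 27305 promoters were not matched to those of the subunits by expression or base content. Among the 66 promoters of subunits, 24 held the NRF1 or the GABPA motif, and SDHD and UQCR11 alone held both. The NRF1 motif was in 6 of 32 promoters of complex I, 2 of 3 of complex II, 4 of 7 of complex III, 0 of 10 of complex IV and 4 of 14 of complex V. Subunits with the NRF1 motif had a median log2 fold change of -0.48 and those without it -0.48, and the medians with and without the GABPA motif were also -0.48 and -0.48. These 4 promoters show the range, since SDHD and UQCR11 hold both motifs, SDHA holds 4 copies of the NRF1 motif and had the smallest decrease in complex II, and NDUFV2 holds neither motif and had the largest decrease of all. Capitals mark matches to the NRF1 and GABPA motifs on either strand, and a match is a description of letters and not a binding site.
SDHD, chr11:112086623-112086922, plus strand: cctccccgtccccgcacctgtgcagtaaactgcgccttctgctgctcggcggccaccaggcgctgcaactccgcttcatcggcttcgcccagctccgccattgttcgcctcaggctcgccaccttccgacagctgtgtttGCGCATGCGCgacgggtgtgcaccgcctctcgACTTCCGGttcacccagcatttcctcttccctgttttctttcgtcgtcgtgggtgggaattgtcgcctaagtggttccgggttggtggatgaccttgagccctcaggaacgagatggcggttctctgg
UQCR11, chr19:1605413-1605712, minus strand: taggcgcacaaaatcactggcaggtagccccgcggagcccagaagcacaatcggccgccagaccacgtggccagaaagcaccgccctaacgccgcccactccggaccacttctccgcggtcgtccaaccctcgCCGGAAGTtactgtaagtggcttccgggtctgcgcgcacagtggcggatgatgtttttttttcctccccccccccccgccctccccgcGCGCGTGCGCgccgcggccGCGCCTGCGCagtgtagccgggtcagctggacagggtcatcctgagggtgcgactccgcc
SDHA, chr5:218070-218369, plus strand: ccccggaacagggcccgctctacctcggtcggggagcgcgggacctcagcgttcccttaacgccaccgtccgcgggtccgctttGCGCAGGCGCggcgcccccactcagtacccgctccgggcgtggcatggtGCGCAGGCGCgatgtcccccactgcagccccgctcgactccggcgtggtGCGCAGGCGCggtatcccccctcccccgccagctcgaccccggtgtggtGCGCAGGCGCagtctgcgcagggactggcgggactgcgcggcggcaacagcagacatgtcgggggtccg
NDUFV2, chr18:9102449-9102748, plus strand: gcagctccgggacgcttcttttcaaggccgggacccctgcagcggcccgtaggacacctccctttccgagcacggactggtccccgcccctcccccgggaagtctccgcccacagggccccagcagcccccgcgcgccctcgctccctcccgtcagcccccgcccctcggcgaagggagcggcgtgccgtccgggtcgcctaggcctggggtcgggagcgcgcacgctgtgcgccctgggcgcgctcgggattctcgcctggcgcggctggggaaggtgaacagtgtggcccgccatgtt

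Complex I, the NADH dehydrogenase and the largest of the complexes, had a median log2 fold change of -0.44 over its 37 nuclear subunits. Of these, 33 passed the exact test as lower, 0 as higher, and 7 were called. The 7 nuclear core subunits carry the flavin and iron-sulfur centers along which electrons travel, and their median was -0.41. NDUFV2, an iron-sulfur subunit of the NADH-binding module (chr18:9102630-9134345, plus strand, GRCh38), had 3936 reads in the control library and 2018 after knockdown (-0.91, interval -0.99 to -0.84, exact binomial p = 5.62e-125). It was the lowest of all members, and the only core subunit called. Its neighbor in the same module, NDUFV1, which binds NADH, had 13949 and 10136 reads (-0.41). NDUFS1, the large iron-sulfur subunit of that module, had 2988 and 2830 reads (-0.03, interval -0.10 to 0.05). The 3 genes of this module thus differed widely among themselves.

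Of the other core subunits, NDUFS7 and NDUFS8, which carry the last iron-sulfur centers before ubiquinone, had 2455 and 1633 reads (-0.54) and 9446 and 7001 reads (-0.38). NDUFS3, an early assembly partner of the peripheral arm, had 1704 and 1179 reads (-0.48). These 3 were close to the median of the complex and passed the exact test. NDUFS1 did not pass it, and by TPM it was higher in Huh7-si, at 49.3 and 54.3 TPM.

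The 30 accessory subunits of complex I had a median of -0.45, with 28 lower by the exact test. NDUFAB1, the mitochondrial acyl carrier protein (chr16:23581002-23596356, minus strand), had 1706 and 912 reads (-0.85, interval -0.97 to -0.74), next to NDUFV2 in size. NDUFA9, an accessory subunit near the ubiquinone site, had 3119 and 1888 reads (-0.67), and NDUFA12, NDUFS5, NDUFC2 and NDUFB8 were also called, at -0.64, -0.63, -0.63 and -0.60. NDUFA13, a small transmembrane subunit also known as GRIM-19, was the most abundant of complex I per length, at 1042 TPM in Huh7-NC and 821 TPM in Huh7-si (reads 5601 and 3943, -0.46). NDUFB1 and NDUFV3 did not pass the test, at -0.10 (interval -0.32 to 0.11) and -0.08 (interval -0.23 to 0.07).

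The NDUFAF genes encode proteins that build complex I and do not stay in it. Their median was -0.35, with 5 of 8 lower and 1 higher by the exact test and 0 called. The lowest was NDUFAF3, with 2577 and 1811 reads (-0.46), and the highest was NDUFAF7, with 243 and 322 reads (0.46, interval 0.21 to 0.70). NDUFAF7, an arginine methyltransferase, was the only member that passed as higher. It overlaps CEBPZ and PRKD3 on the opposite strand, which together had more reads, and the strandedness of the counts is not given in the sources used here, so its reads cannot be told apart from theirs.

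Complex II, the succinate dehydrogenase, is also an enzyme of the citric acid cycle and has no mitochondrially encoded subunit. All 4 of its genes passed the exact test as lower, with a median of -0.40. The flavoprotein SDHA had 3912 and 3458 reads (-0.13, interval -0.20 to -0.06). The iron-sulfur subunit SDHB had 1890 and 1316 reads (-0.47). The membrane anchors SDHC and SDHD had 1995 and 1540 reads (-0.32) and 1157 and 719 reads (-0.64, interval -0.77 to -0.50). SDHD was the only one called, and the intervals of the 4 genes set SDHA apart from SDHB, SDHC and SDHD. By TPM, SDHA turned to slightly higher, with 86.0 in Huh7-NC and 92.1 in Huh7-si. SDHD lies opposite TIMM8B, which had 1205 and 987 reads.

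In complex III, the cytochrome bc1 complex, 8 of 9 genes passed as lower and 1 was called, with a median of -0.36. UQCRHL, an intronless paralog of UQCRH, had 5.06 and 6.10 estimated reads and was the gene that did not pass; without it the median of the 8 was -0.43. The core proteins UQCRC1 and UQCRC2 had 8475 and 6374 reads (-0.36) and 2984 and 2334 reads (-0.31). The Rieske iron-sulfur protein UQCRFS1, which hands electrons to cytochrome c1, had 2037 and 1530 reads (-0.36). These 3 stood close to each other. UQCRQ, a small subunit that contacts cytochrome b, was the lowest, with 1405 and 880 reads (-0.63, interval -0.75 to -0.50). The hinge protein UQCRH, the most abundant per length at 543.5 and 484 TPM, was the highest among those with at least 100 reads, with 3161 and 2485 reads (-0.30). CYC1, the heme-bearing cytochrome c1 that the naming rule does not reach, had 3991 and 2797 reads (-0.46), and cytochrome c itself, CYCS, had 5377 and 4025 reads (-0.37), so both stood within the range of complex III.

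In complex IV, cytochrome c oxidase, 12 of the 13 genes with enough reads passed as lower and 2 were called, with a median of -0.47. COX5A, a matrix-side subunit, was the lowest with 4444 and 2783 reads (-0.63, interval -0.70 to -0.56), and COX6B1, on the intermembrane side, followed with 4128 and 2645 reads (-0.59). The ubiquitous isoform COX4I1, whose protein binds ATP, had 8788 and 6644 reads (-0.35). COX6A1, the most abundant per length, had 905 TPM in Huh7-NC and 811 TPM in Huh7-si (5139 and 4067 reads, -0.29). COX7A2L, known for its part in joining complexes III and IV into supercomplexes, had 1549 and 1237 reads (-0.28).

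Several subunits of complex IV exist as tissue-specific paralogs, and in these cells the ubiquitous forms carried nearly all reads. COX6A2, COX7A1, COX7B2 and COX8C, forms of muscle, heart or testis, were listed with 0 reads in both libraries, which allows up to 3 reads in each. COX4I2, the form of lung and of low oxygen, had 1 and 0 reads, and the testis form COX6B2 had 2 and 4. Their counterparts were read far more: COX7A2 had 2638 and 1776 reads (-0.52), COX8A had 3185 and 2133 (-0.53), and COX7B had 1935 and 1540 (-0.28). COX7B was 64.4 and 72.0 TPM, so its sign turned on that scale. NDUFA4 had 5206 and 3637 reads (-0.47), and its paralog NDUFA4L2, known as a hypoxia-responsive gene, had 22 and 22 (0.05, interval -0.87 to 0.97, and -0.15 by TMM). No switch between paralogs was therefore detectable at this depth. NDUFA4L2 lies opposite SHMT2, which had 10709 reads in Huh7-NC.

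Complex V, the ATP synthase, had the lowest median, -0.50, and all 18 genes with enough reads passed as lower, 4 of them called. The catalytic head F1 had a median of -0.56 over 5 genes. Its beta subunit ATP5F1B, the most read member, had 27501 and 18607 reads (-0.51, interval -0.54 to -0.49), and its alpha subunit ATP5F1A had 11566 and 7992 reads (-0.48). The 3 genes of the proton-carrying c-ring encode the same mature protein, and their median was -0.59. ATP5MC1 was the lowest of complex V, with 1978 and 1212 reads (-0.66, interval -0.76 to -0.55). ATP5MC3 had 6659 and 4262 (-0.59) and ATP5MC2 had 5878 and 3957 (-0.52). The peripheral stalk, which holds the head still, had a median of -0.54 over 4 genes, and the 5 other membrane subunits had a median of -0.44. ATP5MF, one of the membrane subunits, was the most abundant member of all per length, at 1424 and 1078 TPM (3495 and 2494 reads, -0.44), although it overlaps CPSF4 and PTCD1, which had 1736 and 1176 reads in Huh7-NC. ATP5IF1, which blocks ATP hydrolysis by the synthase when the membrane potential is lost, was the highest of complex V with 1847 and 1470 reads (-0.28, interval -0.38 to -0.18).

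Between the complexes the differences were small beside the spread within each. Summed reads of complex V had a log2 fold change of -0.51 (interval -0.52 to -0.49), those of complex IV -0.44 (-0.46 to -0.42), of complex I -0.43 (-0.44 to -0.41), of complex III -0.41 (-0.44 to -0.39) and of complex II -0.30 (-0.34 to -0.25). By these counting intervals complex V lay below the rest and complex II above them, while complexes I, III and IV overlapped. The sum of complex II rests on SDHA, without which it was -0.45 (-0.51 to -0.38), overlapping complexes I, III and IV. The median of complex II (-0.40) was below that of complex III (-0.36), but above the -0.43 of complex III without UQCRHL. The single genes of complex I, however, reached from -0.91 for NDUFV2 to -0.03 for NDUFS1 among those named, which takes in the medians of all 5 complexes.

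On the TPM scale, which is per length, the tested subunits summed to 26992 TPM in the control library and 21378 TPM after knockdown. Their order by level was nearly the same in both libraries, with a Spearman correlation of 0.989 over the 81 genes, given as a description. The same gene led each complex in both: NDUFA13 for complex I, SDHB for complex II, UQCRH for complex III, COX6A1 for complex IV and ATP5MF for complex V. Median levels in Huh7-NC were 212 TPM for complex I, 97.5 for complex II, 162 for complex III, 428 for complex IV and 340 for complex V. The deposited TPM values gave a median log2 ratio of -0.30, with 73 subunits lower and 8 higher, beside a median of 0.39 over all genes tested.

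**Figure D2:**
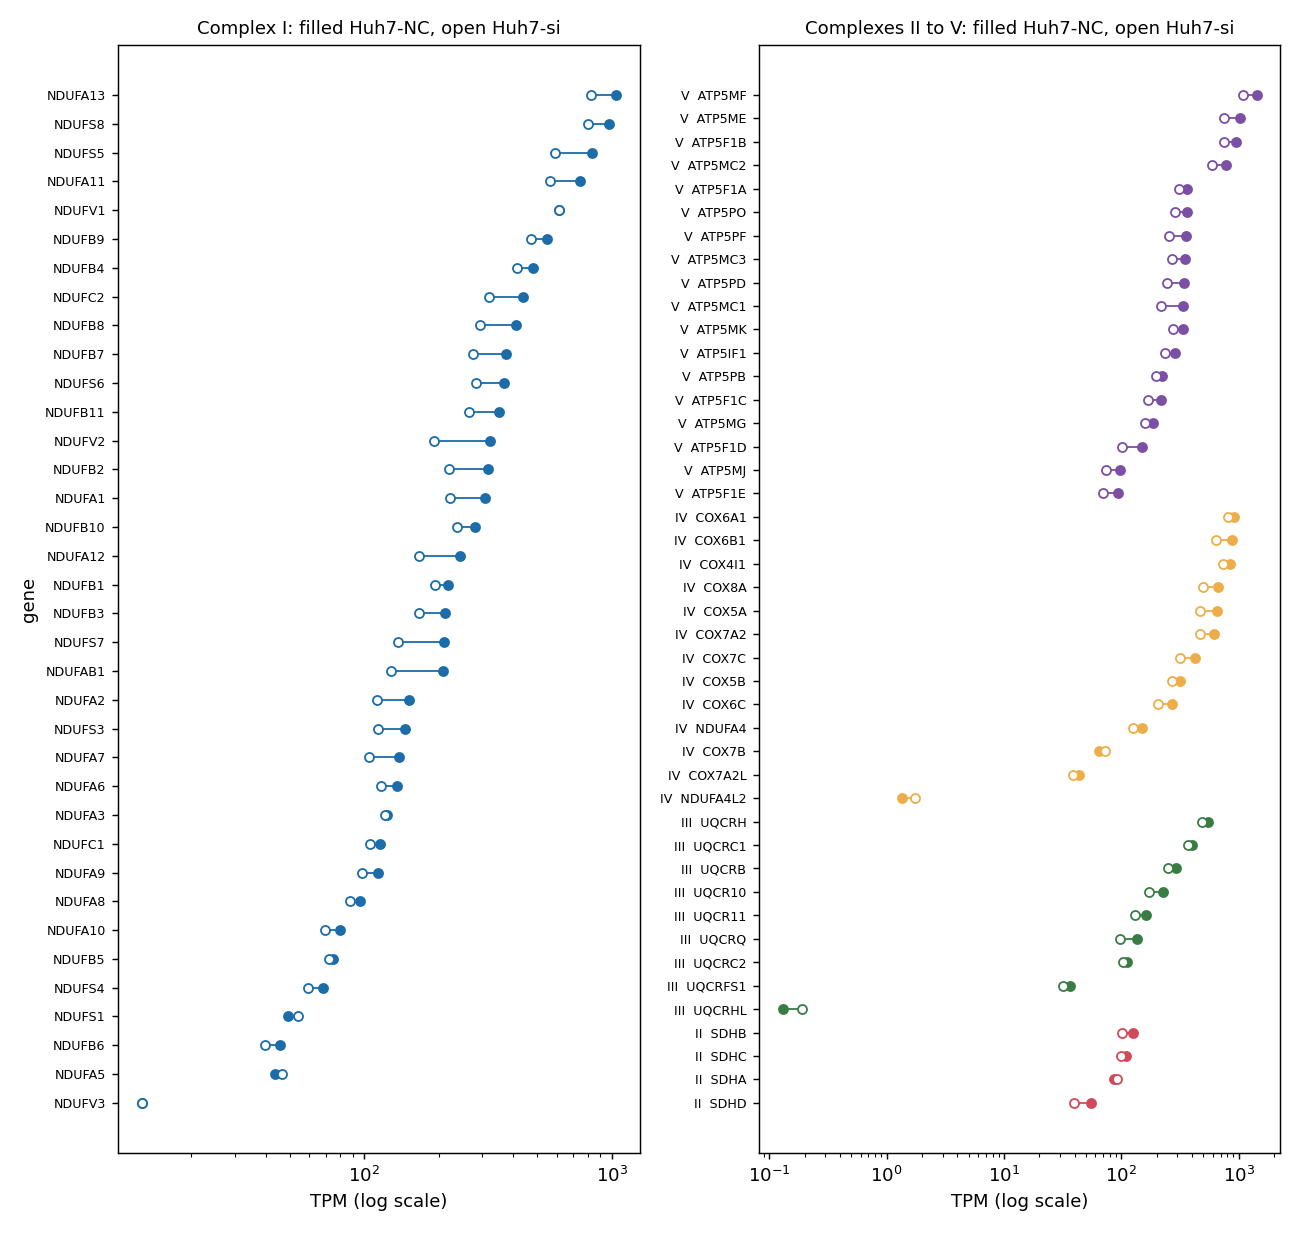
TPM (log scale) of the tested subunits in Huh7-NC (filled) and Huh7-si (open), with complex I on the left and complexes II to V on the right. The open point lies left of the filled point for 73 of the 80 genes drawn, and the levels reach from 0.130 TPM for UQCRHL to 1424 TPM for ATP5MF in Huh7-NC.

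Subunit genes are short and highly expressed, and both properties went with the fold change over the whole table. Across all 17955 genes the Spearman correlation of the log2 fold change was 0.31 with gene length and -0.51 with TPM in Huh7-NC, and across the 81 subunits it was 0.17 and -0.36 (descriptions, over genes of the same 2 libraries). Among genes of up to 700 bases, the 30 subunits had a median of -0.49 and the 405 protein-coding genes -0.37. From 701 to 1500 bases the medians were -0.48 for 25 subunits and -0.26 for 1909 protein-coding genes. From 1501 to 3000 bases they were -0.41 for 19 subunits and 0.01 for 4690 protein-coding genes, and from 3001 to 10000 bases they were -0.36 for 7 subunits and 0.33 for 6595. By deposited length, the subunits were below protein-coding genes in each band, by least among the shortest. That length was long for the reads per TPM of some subunits, such as NDUFA9 (8356 bases) and ATP5F1A (5761 bases) in the last band.

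**Figure D3:**
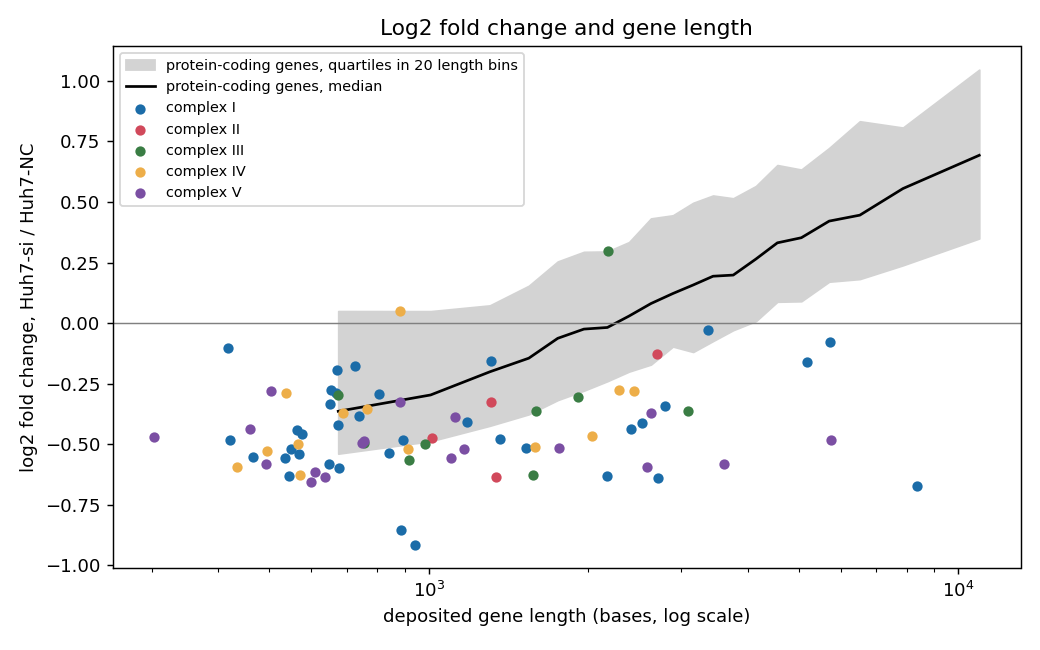
Log2 fold change (Huh7-si over Huh7-NC) against deposited gene length (bases, log scale) for the tested subunits, colored by complex, over the median and quartiles of protein-coding genes in 20 length bins. The median of protein-coding genes climbs with length, and 66 of the 80 subunits drawn lie below that of their own length bin.

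When the median of protein-coding genes of like length was taken off, the subunit median was -0.21 and 66 of 81 were below 0. When protein-coding genes of like length and like TPM were used (10 bins of each), it was -0.08 and 57 of 81 were below 0. The medians of those bins, which hold at least 29 genes each with the subunits among them, were themselves centered on -0.47. With the reads per TPM in place of the deposited length, the values were -0.14 with 63 below and, with TPM as well, -0.05 with 55 below. Most of the decrease of the subunits was thus shared by other short and abundant protein-coding transcripts in this pair of libraries. After length and TPM were taken off, all genes of the F1 head (5 of 5, median -0.22), the c-ring (3 of 3, -0.19) and the peripheral stalk (4 of 4, -0.13) of complex V were still below 0. The other membrane subunits of complex V were not (2 of 5 below, median 0.03), and ATP5IF1 was at 0.19. With reads per TPM in place of the length, the stalk had 3 of 4 below 0 (-0.06). By deposited length and TPM, the lowest single genes were NDUFA9 (-1.13), ATP5F1E (-0.65), ATP5F1A (-0.48) and NDUFA12 (-0.47), with NDUFV2 at -0.45. The deposited lengths of NDUFA9 (8356 bases), ATP5F1A (5761) and NDUFA12 (2707) were long for their reads per TPM. The values of these genes therefore depend on the length used. What ties length and level to the fold change was not tested.

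The subunits encoded by mitochondrial DNA stood on the other side of 0. All 13 passed the exact test as higher in Huh7-si, with a median of 0.30, from 0.11 for MT-ND3 to 2.28 for MT-ND4L. By TPM all 13 were also higher, with a median of 0.47. The size depended on the scaling, since by TMM the median was 0.10, 12 passed as higher, and MT-ND3 turned to -0.09 and passed as lower. Together they made up 3.58% of the control library and 4.85% of the knockdown library, while the nuclear subunits made up 1.18% and 0.866%. The contrast held within each complex that has both kinds, since the mitochondrial median was 0.40 for complex I, 0.30 for MT-CYB of complex III, 0.28 for complex IV and 0.49 for complex V. MT-CO1, the catalytic core of complex IV, had 232608 and 340469 reads (0.60). MT-ND5 of the proton-pumping arm of complex I had 40886 and 74424 reads (0.91). MT-ND4L, at 711 and 3334 reads, shares bases with MT-ND4, as MT-ATP8 does with MT-ATP6, so the split of reads between them is uncertain. These transcripts are short and abundant too, and they were higher than protein-coding genes of like length and TPM by a median of 0.77.

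Assembly factors outside the naming rule had smaller differences before length and level were taken off. They were longer than the subunits (median 1658 against 885 bases) and less abundant (40.3 against 243 TPM in Huh7-NC). Less protein-coding genes of like length and TPM, the medians were close, at -0.055 for these factors and -0.084 for the subunits. With reads per TPM in place of length they were -0.036 and -0.046. Of the 44 factors tested, 29 passed as lower and 3 as higher, with a median of -0.21. UQCC3 (-0.74), COA3 (-0.67) and SDHAF4 (-0.59) were called lower, or 6.82% of the list, where 3.89% of all genes were. SDHAF4 had few reads, 97.0 and 62.3 (interval -1.08 to -0.12). UQCC3 and COA3 help the mitochondrially encoded cytochrome b and COX1 proteins into their complexes, and SDHAF4 protects the flavinated SDHA. The medians were -0.16 for the factors of complex I, -0.31 for complex II, -0.10 for complex III, -0.22 for complex IV and -0.46 for complex V. LRPPRC, which stabilizes mitochondrial mRNAs, was the highest with 3288 and 3880 reads (0.29, interval 0.22 to 0.36, and 0.09 by TMM). It is long, at 5169 bases. Less protein-coding genes of like length it was at -0.065, and with like TPM as well at 0.14.

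Among 12 regulators of mitochondrial gene expression, 4 passed as lower, 4 as higher and the median was 0.00. PPARGC1A, the coactivator PGC-1alpha that drives mitochondrial biogenesis, had 46.0 and 136 reads (1.60, interval 1.12 to 2.13), and its relatives PPARGC1B and PPRC1 had 65.0 and 119 reads (0.92) and 2543 and 3473 reads (0.50). All 3 are long, at 6288, 10569 and 5328 bases, a range of lengths in which most protein-coding genes were higher too. GABPA had 443 and 572 reads (0.42) and lies opposite the complex V gene ATP5PF. NRF1 had 586 and 496 reads (-0.19), the estrogen-related receptor ESRRA had 1132 and 900 (-0.28), and TFAM, which packages and helps transcribe mitochondrial DNA, had 1673 and 1273 (-0.35). By TPM, however, NRF1 (10.6 and 12.3) and TFAM (21.9 and 24.3) were higher in Huh7-si, so their direction depended on the scale. The PGC-1 family coactivators were higher in the library in which the nuclear subunit transcripts were lower. Less protein-coding genes of like length, PPARGC1A, PPARGC1B and PPRC1 were at 1.16, 0.22 and 0.15. With like TPM as well they were at 0.94, 0.13 and 0.35. Any link between these coactivators and the subunits was not tested.

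Readthrough genes and antisense or divergent RNAs carry the symbols of subunits without being their mRNAs. The 6 with enough reads had a median of 0.05, which was -0.15 by TMM, at counts that were mostly low. Scaled to total reads, 0 of them passed the exact test. Under TMM, the median of ratios and the upper quartile, 1 passed as lower. ATP5MF-PTCD1, a readthrough of ATP5MF into its neighbor, had 407 and 360 reads (-0.13), and the divergent RNA NDUFA6-DT had 27.0 and 39.9 reads (0.61, interval -0.12 to 1.38). Among subunits, ATP5MGL was also listed with 0 reads.

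Reads of these genes can be shared with copies and neighbors. The table lists 167 pseudogenes whose names follow the rule, of which 18 had reads, in all 104 before and 118 after knockdown. Measured against the parent gene, the copies of UQCRFS1 held the largest share, equal to 2.11% of its own reads in Huh7-NC. By GENCODE 29 positions, 54 of the 95 tested members overlap another gene with reads. For the 57 subunits without an overlapping gene of at least 10% of their own reads, the median was -0.47, the same as for all 81. NDUFS1, one of the least lowered, lies opposite EEF1B2, which had 12020 and 7794 reads.

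**Figure D4:**
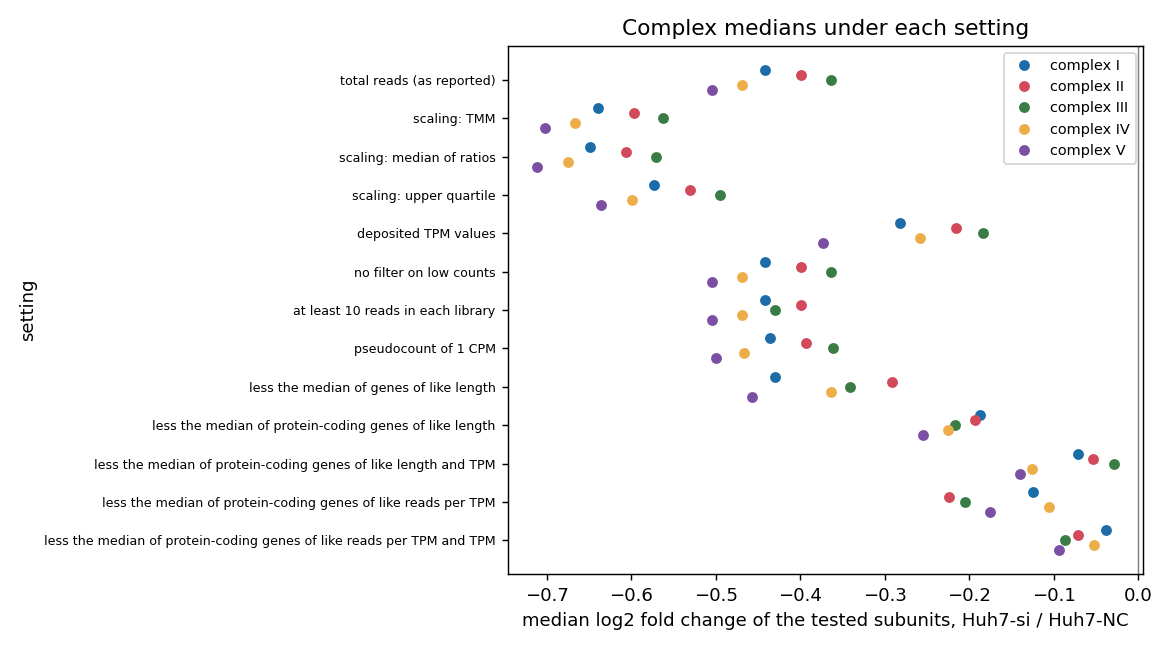
Median log2 fold change of the tested subunits of each complex (Huh7-si over Huh7-NC) under each scaling, filter and comparison set. All medians are below 0, from -0.71 for complex V by the median of ratios to -0.03 for complex III after genes of like length and TPM are taken off.

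The choice of scaling moved these values without turning the median of any of the 5 complexes. TMM shifted every log2 fold change by -0.20 and brought the median of all genes from 0.21 to 0.01, and the complex medians then lay between -0.56 and -0.70. With TMM, NDUFV2 and NDUFAB1 passed a fold of 2, at -1.11 and -1.05.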

How the data were processed

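RNA-seq of 1 Huh7-NC and 1 Huh7-si library was analyzed. The authors deposited estimated counts per gene, not scaled and partly fractional, and TPM values for each library. The deposited fold ratio, log2 and p-value columns are the authors' own comparison and were not used. The submitters' processing notes name TopHat2 2.0.12, Bowtie2 2.0.6 and GRCh37, without saying which step used which. The counting tool, annotation and strandedness are not given in the sources used here. Without strand, reads of overlapping genes cannot be assigned.

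Counts were rounded for tests. Log2 fold changes are ratios of CPM with a pseudocount of 0.5 reads, for genes with at least 10 reads over both libraries, and were tested by a two-sided exact binomial test against the library totals, first tested on simulated data. Gene types, positions and overlaps came from GENCODE 29 (GRCh38) by identifier (94.8% matched, and all 104 members). A count of 0 allows 3 reads. Members were assigned to complexes by hand. The values of 1 member are in the counts and medians but are not reported here or drawn.

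Named were, in each complex, the genes with the highest and lowest log2 fold change among those with at least 100 reads and the gene with the highest TPM, with the core subunits, SDHA to SDHD, UQCRC1, UQCRC2, UQCRFS1, ATP5F1A, ATP5F1B, ATP5IF1 and the paralog pairs. Other names were chosen after their values were seen. The members and lists (mtDNA-encoded subunits, other assembly factors, CYC1 and CYCS, regulators, markers) were chosen with earlier results of these data known.

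Alternatives were 3 scalings (edgeR's TMM and upper quartile, DESeq2's median of ratios), the TPM values, filters, pseudocounts, other tests and genes of like length. Added after seeing the data were protein-coding genes of like length, TPM or reads per TPM, the p alone, also from edgeR's exact test given a coefficient of variation, NDUFA4 and NDUFA4L2 in complex I, complex II without SDHA, and the scalings for the mtDNA-encoded and the readthrough and noncoding genes. Python 3.11.15 (NumPy 2.4.6, pandas 2.3.3, SciPy 1.17.1, matplotlib 3.10.9) and R 4.3.3 (edgeR 4.0.16, DESeq2 1.42.0) were used.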

Additional observations from a re-analysis of the deposited data

How the results depend on the processing

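No paired analysis was possible because each condition has 1 library, and no library could be left out. With 1 library per condition, differences in culture, transfection and library preparation cannot be told apart from the effect of the siRNA. At a fold of 2, the members called lower numbered 2 by TMM and by the median of ratios (NDUFAB1 and NDUFV2), 1 by the upper quartile (NDUFV2) and 1 less genes of like length (NDUFA9), against 0 as reported. They numbered 15 at a fold of 1.5, 80 at any fold and 50 at any fold with edgeR's exact test at a coefficient of variation of 0.1. The members called higher numbered 1 at any fold. No median of the members or of complexes I to V changed sign under any setting tried. The median of the readthrough and noncoding members turned from 0.05 to -0.15 by TMM, -0.16 by the median of ratios and -0.082 by the upper quartile, and that of the mtDNA-encoded subunits fell from 0.30 to 0.10, 0.092 and 0.17, with MT-ND3 below 0 in each. In the order all members, then complexes I to V, the medians by TPM were -0.27, -0.28, -0.22, -0.18, -0.26 and -0.37. Less protein-coding genes of like length they were -0.19, -0.19, -0.19, -0.22, -0.22 and -0.25, and with like TPM as well -0.096, -0.072, -0.053, -0.028, -0.13 and -0.14. Less those of like reads per TPM they were -0.14, -0.12, -0.22, -0.21, -0.11 and -0.18, and with like TPM as well -0.046, -0.038, -0.072, -0.087, -0.053 and -0.094. For all members and complexes I, II, IV and V they were -0.64, -0.64, -0.60, -0.67 and -0.70 by TMM and -0.64, -0.65, -0.61, -0.68 and -0.71 by the median of ratios. For complexes I, II, IV and V the upper quartile gave -0.57, -0.53, -0.60 and -0.64. Less all genes of like length, complexes II and IV had -0.29 and -0.36. TMM, the median of ratios and the upper quartile put NDUFA4L2 at -0.15, -0.16 and -0.082. TPM put COX7B at 0.16, NDUFS1 at 0.14 and SDHA at 0.10. The cause of these shifts was not tested beyond the scaling itself. For 32 genes of the naming rule, 247 values kept their direction and their side of the threshold, 6 turned as given above, and NDUFV2 passed a fold of 2 under 3 scalings, and other genes named in the report were not part of this tally.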
